A study of Mus musculus with 6 samples.

Results

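The genes described here are the cytosolic sensors of RNA and DNA and the adaptor proteins they signal through, 10 genes chosen by name, all of which were among the 26012 genes of the deposited table. They are Ddx58 (RIG-I), Ifih1 (MDA5), Dhx58 (LGP2), Mavs, Ddx60, Eif2ak2 (PKR), Adar, Zbp1, Mb21d1 (cGAS) and Tmem173 (STING). RNA-seq had been performed on ventricles of 6 hearts of male C57BL/6 mice that underwent MI at 8 weeks of age by ligation of the LAD coronary artery. In 3 hearts 10 μg of control mimic was injected and in 3 hearts 10 μg of miR-19a/19b mimics, synthetic duplexes that act as the mature miRNA, and tissue was taken on day 4. RNA was taken from ventricular tissue, with no stated separation of the infarct from remote muscle. All 6 mice were infarcted and injected, so neither group stands for an uninjured heart, and the comparison asks how the sensors differ between infarcted hearts that received miR-19a/19b and infarcted hearts that did not.

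Cells recognize foreign or misplaced nucleic acid in the cytosol through these proteins. RIG-I and MDA5 bind double-stranded RNA and pass the signal to MAVS on the mitochondrial surface, while cGAS binds DNA and makes a cyclic dinucleotide that activates STING. Both routes end in transcription of interferon genes, and interferon in turn raises the transcription of many of the sensors themselves, so that several of them are known as interferon-stimulated genes. In the infarcted heart, nucleic acid released from dying cells is a known trigger of interferon signaling in infiltrating myeloid cells.

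The injected miRNAs share their seed, the bases from 2 to 8 that pair with a target mRNA. Their mature sequences (RefSeq, GRCm38.p6) are given with the seed in capitals.
miR-19a-3p: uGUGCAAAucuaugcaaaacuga
miR-19b-3p: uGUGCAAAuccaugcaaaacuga
These sequences differ at 1 base, U11C, counted from the 5′ end of miR-19a-3p. A match to this seed in a 3′ UTR is TTTGCACA (8-mer), TTTGCAC or TTGCACA (7-mers). In the longest 3′ UTR of each gene in GENCODE M21, 4 of the 10 genes held such a match, where 19.4% of the 15867 tested genes with a 3′ UTR did. A longer 3′ UTR has more room for a match, and this share was not matched for length. The 3′ UTRs of the 10 genes ran from 273 bases (Dhx58) to 2626 (Mavs). Of the genes that were lower in every miR-19a/19b mimic-injected heart, described below, 3 of 7 held a match, and Dhx58, Ddx60, Eif2ak2 and Zbp1 held none. Of the other 3 genes, 1 held a match, Tmem173. The matches of the 3 lower genes are given on the transcribed strand with the match in capitals, since they show which of these mRNAs carry letters that the mimics could pair with.
Adar, an 8-mer in the 3′ UTR at chr3:89752737-89752764, plus strand, GRCm38: actggggatgtcTTTGCACAgccaaatc
Ifih1, a 7-mer in the 3′ UTR at chr2:62597551-62597578, minus strand, GRCm38: tgctctcataacTTTGCACttcattgtg
Ddx58, a 7-mer in the 3′ UTR at chr4:40205714-40205741, minus strand, GRCm38: tcttacccaagcTTGCACAatcctttct
The 8-mer, present in 5.81% of the tested 3′ UTRs, was found in Adar. Whether a match goes with the size of a difference was not tested. A match is a description of the letters and not evidence of pairing in these hearts.

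The start sites of the genes were searched for the core letters of the interferon-stimulated response element, GAAANNGAAA on either strand, which factors activated by the interferon receptor recognize. Windows from 250 bases before to 50 bases after a RefSeq start site (GRCm38.p6) were given for 7 of the 10 genes, and Zbp1, Dhx58 and Tmem173 were not searched here. The letters were found in 4 of the 7 genes, Ddx60, Ifih1, Ddx58 and Eif2ak2, and in 3.99% of the 27025 genes with such a window. All 4 belong to the genes that were lower in miR-19a/19b mimic-injected hearts, which made up 5 of the 7 genes searched. A link between the letters and the differences was not tested. The letters were not in the windows of Mavs and Mb21d1, nor in any of the 3 windows of Adar. The windows of the 4 genes and, for comparison, of Mavs are given 5′ to 3′ on the transcribed strand, with the response element letters in capitals.
Ddx60, chr8:61927837-61928136, plus strand: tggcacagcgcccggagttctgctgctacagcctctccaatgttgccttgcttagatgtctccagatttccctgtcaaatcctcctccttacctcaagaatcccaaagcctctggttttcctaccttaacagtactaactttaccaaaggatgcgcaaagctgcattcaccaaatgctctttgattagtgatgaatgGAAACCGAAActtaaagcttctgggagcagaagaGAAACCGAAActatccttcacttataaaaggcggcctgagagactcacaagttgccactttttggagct
Ifih1, chr2:62646206-62646505, minus strand: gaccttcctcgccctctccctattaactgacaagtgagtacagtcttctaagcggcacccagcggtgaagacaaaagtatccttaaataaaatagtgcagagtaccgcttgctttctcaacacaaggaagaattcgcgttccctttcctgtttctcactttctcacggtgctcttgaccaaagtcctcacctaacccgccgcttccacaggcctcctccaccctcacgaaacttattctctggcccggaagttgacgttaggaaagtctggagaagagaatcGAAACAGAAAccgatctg
Ddx58, chr4:40239776-40240075, minus strand: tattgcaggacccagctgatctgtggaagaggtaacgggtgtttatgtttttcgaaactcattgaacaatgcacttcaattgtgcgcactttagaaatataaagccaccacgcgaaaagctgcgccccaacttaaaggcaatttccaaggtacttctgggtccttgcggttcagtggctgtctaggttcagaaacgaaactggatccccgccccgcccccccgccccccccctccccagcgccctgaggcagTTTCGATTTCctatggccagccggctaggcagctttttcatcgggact
Eif2ak2, chr17:78882523-78882822, minus strand: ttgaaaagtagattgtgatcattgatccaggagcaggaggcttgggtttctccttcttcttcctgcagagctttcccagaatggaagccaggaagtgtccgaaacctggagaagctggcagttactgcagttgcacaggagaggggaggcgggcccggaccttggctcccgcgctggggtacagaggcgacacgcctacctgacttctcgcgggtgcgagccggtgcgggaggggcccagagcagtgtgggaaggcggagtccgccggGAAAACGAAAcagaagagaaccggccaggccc
Mavs, chr2:131233813-131234112, plus strand: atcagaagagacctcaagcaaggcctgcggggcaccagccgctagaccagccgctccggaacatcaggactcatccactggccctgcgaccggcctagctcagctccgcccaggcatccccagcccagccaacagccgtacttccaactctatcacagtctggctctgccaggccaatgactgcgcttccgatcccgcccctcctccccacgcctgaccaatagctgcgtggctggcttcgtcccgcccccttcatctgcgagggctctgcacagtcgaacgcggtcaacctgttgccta
In Ddx60 the letters occurred 2 times, starting 53 and 19 bases before the start site. They started 32 bases after it in Ifih1, 18 bases after it in Eif2ak2 and 2 bases after it on the other strand in Ddx58. No binding was measured in this study, and a window without the letters says nothing about the factor.

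Reads counted on genes ranged from 19398196 to 23645308 per heart. Values are normalized counts, in which reads per gene were scaled by the size factor of each library. The test was limma on the log2 scale with 1 added to each value, run on the 21126 genes whose mean reached 1. Among the 6 libraries, 2 stood apart from the rest. In miR-19a/19b mimic replicate 1 the summed normalized counts of 7 skeletal muscle genes reached 2350, where the other hearts had between 32.2 and 70.9. In miR-19a/19b mimic replicate 3 the cardiomyocyte markers summed to 303980, against 499750 to 637900 in control hearts. In miR-19a/19b mimic replicates 1 and 2 they summed to 877590 and 775830, above every control heart. The pan-leukocyte markers (Ptprc, Itgam, Cd52, Laptm5) of replicate 3 summed to 13872, the highest of the 6. Results are therefore also given without each of these hearts. All 8 markers of cardiomyocytes were detected in every heart. The hearts are separate animals, but a whole-tissue library cannot tell fewer cells of a type from less RNA per cell.

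Of the 10 genes, 7 were lower in each miR-19a/19b mimic-injected heart than in each control heart: the 3 RIG-I-like receptors, Ddx60, Eif2ak2, Adar and Zbp1. Their means in miR-19a/19b mimic-injected hearts stood between 52.2% (Zbp1) and 75.0% (Adar) of the control mean. The cGAS gene Mb21d1 and both adaptor genes, Mavs and Tmem173, overlapped between the groups. None of the 10 passed the adjusted threshold: 0 of 10 had an adjusted p-value under 0.05 in limma, where 0% of the genes tested were lower at that threshold. At an unadjusted p-value under 0.05, 7 of 10 were lower, against 2.63% of all genes tested, and 0 of 10 were higher, against 1.39%. Values that did not overlap, with the miR-19a/19b mimic hearts lower, were found for 7 of 10 and for 5.3% of all genes tested. On reads recovered from the normalized counts, DESeq2 called 1 of 10, Ddx60 (adjusted p = 0.00451), against 0.198% of the genes for which it gave an adjusted p-value. edgeR's quasi-likelihood test and limma-voom called 0. The median log2 fold change of the 10 genes was -0.50 and that of all genes tested 0.00410.

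**Figure D1:**
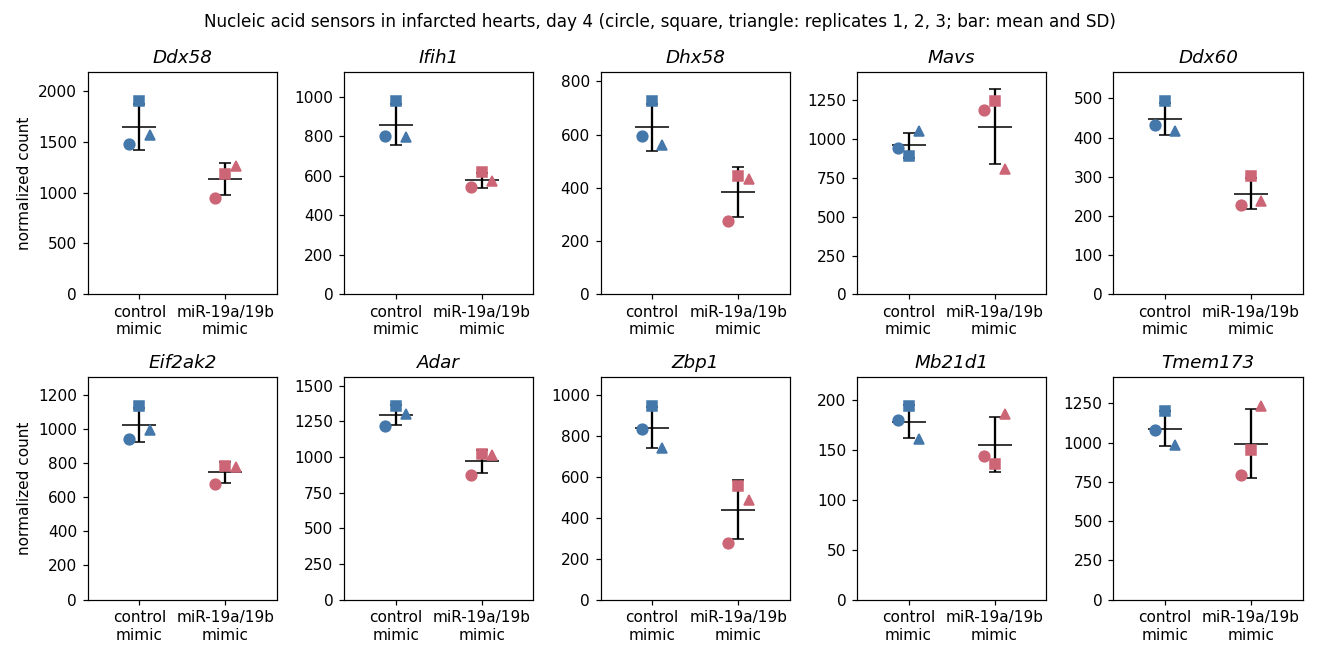
Normalized counts (y axis, from 0) of the 10 genes in 3 control mimic and 3 miR-19a/19b mimic-injected hearts (x axis); symbols are hearts, the horizontal mark the mean and the bar the SD. The groups are apart in 7 panels and overlap for Mavs, Mb21d1 and Tmem173.

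Among the receptors, Ddx58 encodes RIG-I, which binds short double-stranded RNA with a triphosphate end. Ddx58 (ENSMUSG00000040296), on chromosome 4 from 40203773 to 40239828, had 1473, 1901 and 1563 normalized counts in the control hearts, replicates 1 to 3 in order here and for each gene that follows. The miR-19a/19b mimic-injected hearts had 951, 1187 and 1258. The groups did not overlap, and the gap between the highest miR-19a/19b mimic heart and the lowest control heart was similar in size to the SD within the groups (226 and 160.5, n = 3 each). The log2 fold change was -0.54 (standard error 0.14, 95% interval -0.86 to -0.22, adjusted p = 0.897 from limma).

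Ifih1 encodes MDA5, the receptor for long double-stranded RNA. Ifih1 (ENSMUSG00000026896), on chromosome 2 from 62595798 to 62646255, had 802, 979 and 794 normalized counts in control hearts and 542, 619 and 573 in miR-19a/19b mimic-injected hearts. All 3 mimic hearts were close together, with an SD of 38.4 against 104 in the control hearts. The log2 fold change was -0.57 (standard error 0.12, 95% interval -0.83 to -0.30, adjusted p = 0.724 from limma).

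Dhx58 encodes LGP2, a helicase of the same family that lacks the signaling domains and modulates the other receptors. Dhx58 (ENSMUSG00000017830), on chromosome 11 from 100694884 to 100704271, had 597, 727 and 560 normalized counts in control hearts. It had 275, 444 and 432 in miR-19a/19b mimic-injected hearts, where replicate 1 was well below the other two. The log2 fold change was -0.73 (standard error 0.19, 95% interval -1.17 to -0.29, adjusted p = 0.917 from limma), and -0.51 without replicate 1 of the miR-19a/19b mimic group. The ratio of Dhx58 to Ddx58 per kilobase was 0.624 in that heart and between 0.740 and 0.873 in the other 5. An antisense gene, Dhx58os, shares 141 exon bases with Dhx58, and the counting is not stated to use strand.

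Ddx60 is a helicase described as a cofactor of the RIG-I-like receptors. Ddx60 (ENSMUSG00000037921), on chromosome 8 from 61928087 to 62037701, had 431, 494 and 417 normalized counts in control hearts and 228, 302 and 239 in miR-19a/19b mimic-injected hearts. The highest mimic heart was thus at 302 and the lowest control heart at 417, a gap larger than the SD of either group (41.0 and 39.8, n = 3 each). Its log2 fold change was -0.81 (standard error 0.14, 95% interval -1.13 to -0.49, adjusted p = 0.493 from limma), and it had the smallest unadjusted p-value of the 10 genes (0.000298), the 11th among all genes tested.

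Zbp1 encodes a sensor of Z-form nucleic acid that can start necroptosis through RIPK3. Zbp1 (ENSMUSG00000027514), on chromosome 2 from 173206612 to 173218923, had 832, 945 and 742 normalized counts in control hearts. The other group had 277, 554 and 486, and replicate 1 was far below the other two. Its log2 fold change, -0.99, was the furthest from 0 of the 10 (standard error 0.24, 95% interval -1.52 to -0.45, adjusted p = 0.839 from limma). Without miR-19a/19b mimic replicate 1 the log2 fold change was -0.69, and that of Ddx60, at -0.73, was further from 0. The coefficient of variation of the mimic group, 32.9%, was the largest of the 10 genes.

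The other 2 lower genes act on double-stranded RNA directly. Eif2ak2 encodes PKR, a kinase that double-stranded RNA activates and that halts translation by phosphorylating eIF2α. Eif2ak2 (ENSMUSG00000024079), on chromosome 17 from 78852564 to 78882573, had 939, 1132 and 993 normalized counts in control hearts and 676, 783 and 776 in miR-19a/19b mimic-injected hearts, without overlap. The log2 fold change was -0.45 (standard error 0.11, 95% interval -0.71 to -0.20, adjusted p = 0.877 from limma). Adar encodes ADAR1, which converts adenosine to inosine in double-stranded RNA and keeps cellular RNA from activating MDA5 and PKR. Adar (ENSMUSG00000027951), on chromosome 3 from 89715022 to 89753446, had 1217, 1358 and 1303 normalized counts in control hearts and 875, 1022 and 1011 in miR-19a/19b mimic-injected hearts. Its log2 fold change was -0.42 (standard error 0.10, 95% interval -0.65 to -0.18, adjusted p = 0.877 from limma), with coefficients of variation of 5.49% and 8.46% in the 2 groups. Exons of Adar share 1365 bases with Chrnb2 on the other strand, and those of Eif2ak2 share 174 bases with Gm26637 and 47 bases with n-R5s29.

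The adaptors and cGAS did not share this pattern. Mavs (ENSMUSG00000037523), on chromosome 2 from 131234063 to 131248025, had 942, 893 and 1052 normalized counts in control hearts and 1191, 1247 and 806 in miR-19a/19b mimic-injected hearts. The mimic hearts lay on both sides of the control hearts, with replicates 1 and 2 above and replicate 3 below all of them. The log2 fold change was 0.15 with a 95% interval of -0.23 to 0.52 (unadjusted p = 0.407 from limma). Tmem173 (ENSMUSG00000024349), on chromosome 18 from 35733678 to 35740554, had 1081, 1204 and 985 normalized counts in control hearts and 795, 955 and 1233 in miR-19a/19b mimic-injected hearts. Here too replicate 3 stood on the other side of the control hearts from replicates 1 and 2, and the log2 fold change was -0.15 with a 95% interval of -0.52 to 0.21. Its 3′ UTR holds a 7-mer seed match. Mb21d1 (ENSMUSG00000032344), on chromosome 9 from 78430526 to 78443237, had 180.2, 194 and 162 normalized counts in control hearts and 144, 136 and 187 in miR-19a/19b mimic-injected hearts. Its log2 fold change was -0.21 with a 95% interval of -0.58 to 0.16, and its exons share 201 bases with the pseudogene Gm8093 on the other strand. These intervals include differences as large as that of Adar for Tmem173 and Mb21d1, so a difference of that size cannot be told from none with 3 hearts against 3.

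**Figure D2:**
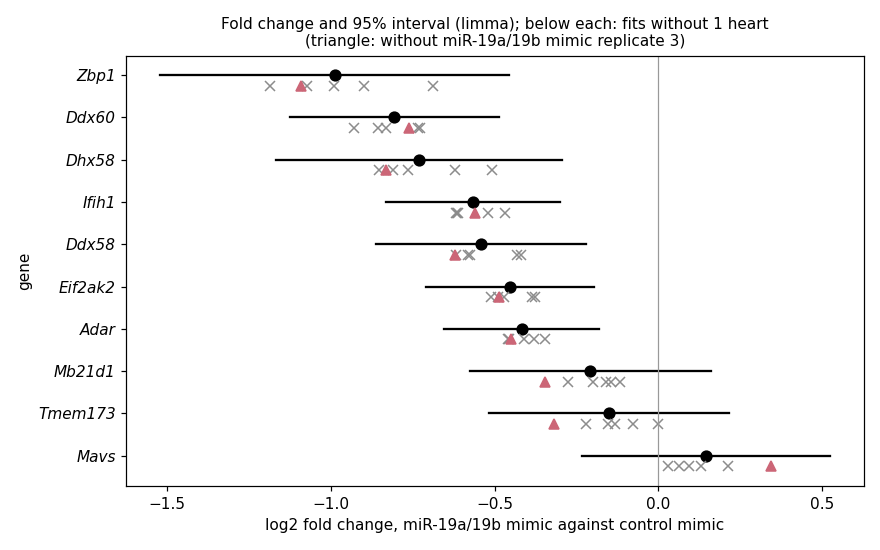
Log2 fold change of miR-19a/19b mimic against control mimic (x axis) for the 10 genes (y axis); black points and lines are the limma estimates and 95% intervals from all 6 hearts, and the marks below them the fits that leave out 1 heart. The intervals of 7 genes lie below 0, and the triangles, without miR-19a/19b mimic replicate 3, move Mavs to 0.34 and Tmem173 to -0.32.

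The 10 genes were ordered by level in the control hearts as normalized counts per kilobase of gene length. Tmem173 was highest, at 473 ± 47.8 per kilobase (SD, n = 3), above every value of Mavs at 288 ± 24.4. Zbp1 (238 ± 28.8), Ddx58 (233 ± 32.0), Eif2ak2 (199.8 ± 19.4) and Dhx58 (192 ± 26.9) came next, and from Mavs to Dhx58 each overlapped its neighbor in this order. Adar (159 ± 8.74), Ifih1 (105 ± 12.8), Ddx60 (64.5 ± 5.92) and Mb21d1 (43.3 ± 3.96) followed, each apart from the one before. In miR-19a/19b mimic-injected hearts Tmem173 stood at 432 ± 96.2 and Mavs at 323 ± 71.9 per kilobase, and Ddx58, the highest of the lower genes there, at 161 ± 22.8. The ratio of Ifih1 to Mavs, per kilobase, was 0.349, 0.449 and 0.309 in the control hearts and 0.187, 0.203 and 0.291 in the miR-19a/19b mimic-injected hearts, without overlap. That of Ddx58 to Mavs was 0.742, 1.01 and 0.705 against 0.379, 0.451 and 0.741, with overlap at replicate 3. The ratio of Mb21d1 to Tmem173 varied little, between 0.0900 and 0.0930 in control hearts and between 0.0795 and 0.101 in the others. These ratios were chosen after the values were seen and were not tested.

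The hearts also differed within groups in a like way across the lower genes. For all 7, control mimic replicate 2 was the highest control heart and miR-19a/19b mimic replicate 1 the lowest of all. Relative to the control mean on the log2 scale, miR-19a/19b mimic replicate 1 was between -1.59 (Zbp1) and -0.56 (Adar). Replicate 2 was between -0.59 (Zbp1) and -0.34 (Adar), and replicate 3 between -0.89 (Ddx60) and -0.35 (Adar). The counts of the cell type markers moved with some of these differences. The monocyte markers (Ly6c2, Ccr2, Chil3, Plac8) summed to between 4385 and 5889 in control hearts and to between 2689 and 3842 in the other group. Of the 4 markers, 3 were lower in each mimic heart, against 5.3% of all genes tested. Ccr2, the chemokine receptor that defines recruited monocytes, had 2525, 2652 and 2079 normalized counts in control hearts and 1489, 1593 and 1942 in the others. The exception was Chil3, with 694, 697 and 568 in control hearts and 399, 421 and 793.5 in the others, above every control heart in replicate 3. The 7 T cell markers summed to between 218 and 317 against 168 and 194, and the 5 dendritic cell markers to between 614 and 641 against 520.4 and 583. Of these markers, 3 of 7 and 3 of 5 were lower in each mimic heart, against 5.3% of all genes tested. The T cell markers were all low, with Cd4, the highest, between 55.67 and 115.2. Most of the dendritic cell sum came from Zbtb46, which overlapped, at 453.1, 403.1 and 405.5 against 460.5, 441.3 and 364.8. Macrophage markers overlapped between the groups, at 67282 to 76417 against 53484 to 84308, as did those of neutrophils, B cells, fibroblasts, endothelial cells and cardiomyocytes. In miR-19a/19b mimic replicates 1 and 2 the macrophage (53484 and 62812) and pan-leukocyte (9184 and 9662) sums were below every control heart. The cardiomyocyte sums of these hearts (877590 and 775830) were above every control heart. None of the markers was at 0 in all hearts. The part of these cell types in the differences of the sensors was not tested. In miR-19a/19b mimic replicate 3 the macrophage (84308) and pan-leukocyte (13872) sums were above every control heart, and the monocyte (3842), T cell (194) and dendritic cell (520.4) sums were below every control heart. Within the dendritic cell list only Zbtb46 was at its lowest in that heart. Flt3, Xcr1, Cd209a and Siglech were there at their highest among the mimic hearts.

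**Figure D3:**
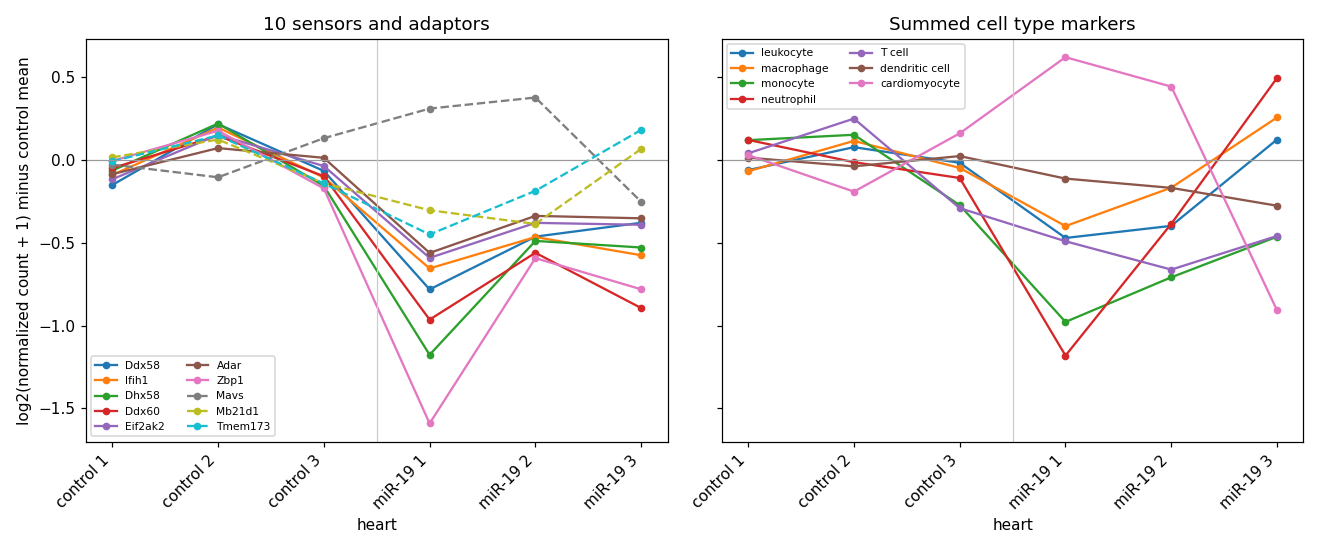
Left, log2(normalized count + 1) of the 10 genes relative to the control mean in each heart (x axis), solid for the 7 lower genes and dashed for Mavs, Mb21d1 and Tmem173; right, the same scale for the summed counts of 7 lists of cell type markers. The 7 solid lines are below 0 in all 3 miR-19a/19b mimic-injected hearts. Among these hearts, the leukocyte and macrophage lines are below 0 in replicates 1 and 2 and above 0 in replicate 3. The cardiomyocyte line is above 0 in replicates 1 and 2 and below 0 in replicate 3.

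Each heart was left out in turn. The count of 7 genes lower at an unadjusted p-value under 0.05 was the same in 5 of these 6 fits, including the fit without miR-19a/19b mimic replicate 1. Without miR-19a/19b mimic replicate 3 it was 9, and in that fit the share of all genes tested that were lower at this threshold was also larger, at 6.08%, as was the share that were higher, at 8.39%. There, 7 of the 10 genes, those that did not overlap in all 6 hearts, had an adjusted p-value under 0.05 in limma (between 0.0241 for Ddx60 and 0.0464 for Eif2ak2), against 0.774% of all genes tested in that fit. The mimic hearts left in that fit, replicates 1 and 2, had cardiomyocyte sums above and pan-leukocyte sums below every control heart. The log2 fold change of Mavs in that fit was 0.34 (unadjusted p = 0.00523, adjusted p = 0.106 from limma). Those of Tmem173 and Mb21d1 were -0.32 and -0.34 (unadjusted p = 0.0187 and 0.0402, adjusted p = 0.213 and 0.313 from limma). Without miR-19a/19b mimic replicate 1, the log2 fold change of Tmem173 was -0.00194 and that of Mavs 0.06.

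The genes around the sensors were given by a list of 67 names in 8 roles, of which 64 were in the table and 63 were tested. Trex1, Ifna2 and Ifna4 were not analysed here. In limma, 0 of the 63 had an adjusted p-value under 0.05. At an unadjusted p-value under 0.05, 11 of the 63 were lower, against 2.63% of all genes tested, and 0 were higher, against 1.39%. DESeq2 called 2 of the 63, Ifit1 and Ifit2, against 0.198%. The median log2 fold change of the 63 was -0.09.

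Among the outputs of the pathway, 4 of 5 tested genes were lower in each miR-19a/19b mimic-injected heart, against 5.3% of all genes tested. Ifit2, which blocks translation of viral RNA, had 1708 ± 102 normalized counts in control hearts and 1037 ± 125 in miR-19a/19b mimic-injected hearts (log2 fold change -0.72, adjusted p = 0.396 from limma and 0.000782 from DESeq2). Ifit1, of the same family, had 1192 ± 240 and 583 ± 153 (log2 fold change -1.05, adjusted p = 0.724 from limma and 0.0101 from DESeq2). Isg15, a ubiquitin-like modifier, and Ccl5, a chemokine for T cells and monocytes, had log2 fold changes of -0.85 and -0.99 (unadjusted p = 0.00359 and 0.00121 from limma). Cxcl10, another interferon-induced chemokine, overlapped between the groups with a log2 fold change of -0.58 (unadjusted p = 0.105 from limma). Ifnb1, the gene for interferon beta, had 5.86 normalized counts in control mimic replicate 2 and was at 0 in the other 5 hearts, so its level could not be compared at this depth.

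In the relay from the interferon receptor, 3 of 7 genes were lower at an unadjusted p-value under 0.05, against 2.63% of all genes tested. Among them were the transcription factor genes Stat2 (2027 ± 177 and 1354 ± 223 normalized counts, log2 fold change -0.59) and Irf9 (1567 ± 113 and 1246 ± 137, -0.33). The receptor chains and kinases of the same relay, Ifnar1, Ifnar2, Jak1 and Tyk2, had log2 fold changes between -0.16 and -0.02. Among the transcription factors, Irf7, the interferon-induced amplifier of interferon transcription, had 5031 ± 936 and 3021 ± 526 normalized counts (log2 fold change -0.73, unadjusted p = 0.00189 from limma). Irf3, the factor that MAVS and STING activate first, had 1007 ± 40.1 and 1063 ± 99.6 (log2 fold change 0.07), and Irf1, Irf5, Nfkb1 and Rela lay between -0.13 and 0.06.

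Between the sensors and these factors, differences were small in the relay from MAVS and STING. The 11 genes listed for this relay, which were not split into carriers and inhibitors of the signal, had a median log2 fold change of -0.08. At an unadjusted p-value under 0.05, 0 of them were lower, against 2.63% of all genes tested, and 0 were higher, against 1.39%. With 11 genes, 0 cannot be told from such shares. All mimic hearts lay below all control hearts for 2 of the 11, against 5.3% of all genes tested. They lay above them for 1, against 824 of the 21126 genes tested. Traf3, a ubiquitin ligase bound by MAVS, had the smallest p-value of them (943 ± 43.9 and 815 ± 21.97 normalized counts, log2 fold change -0.21, unadjusted p = 0.0513 from limma). The kinase genes Tbk1 and Ikbke had log2 fold changes of -0.06 and -0.23. Among 8 genes listed as cofactors or regulators of RIG-I and MDA5, Oasl1, an interferon-induced member of the OAS family, was lower (572 ± 122 and 316 ± 86.7, log2 fold change -0.87, unadjusted p = 0.00391 from limma). This list was not split into activators and inhibitors. Trim25, the ubiquitin ligase of RIG-I, had a log2 fold change of -0.21 (unadjusted p = 0.0904 from limma). Of the 13 genes on the DNA side, Ifi204, a DNA sensor of the Ifi200 family, had 1992 ± 225 and 1392 ± 191 (log2 fold change -0.52, unadjusted p = 0.00374). Samhd1, which degrades nucleotides, had a log2 fold change of -0.33 (unadjusted p = 0.0499) with overlap between the groups. The other kinases of eIF2α (Eif2ak1, Eif2ak3 and Eif2ak4) had log2 fold changes between -0.12 and 0.08. Of the 8 genes in that role, which includes the binders of double-stranded RNA, Tarbp2 had the smallest p-value (log2 fold change 0.14, unadjusted p = 0.216 from limma). The 5 partners of ZBP1 in cell death lay between -0.18 for Mlkl, the executioner of necroptosis, and -0.01 for Fadd. Ripk3, which ZBP1 binds, had 742 ± 94.8 and 729 ± 154 normalized counts.

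**Figure D4:**
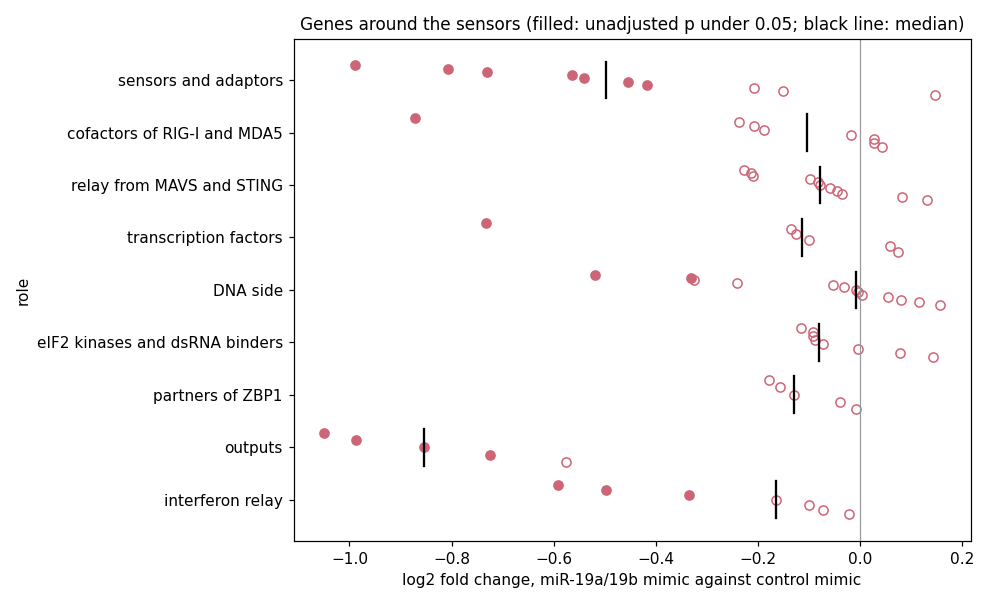
Log2 fold change of miR-19a/19b mimic against control mimic (x axis) of the 10 sensors and adaptors and of 63 genes around them by role (y axis); filled points passed the unadjusted threshold of 0.05 and black lines are medians. The median of the outputs is -0.85, while the relay from MAVS and STING (-0.08) and the eIF2 kinases and dsRNA binders (-0.08) are near 0.

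Across the 6 hearts, the genes whose profile lay nearest to the mean profile of the 10 genes were Uba7, Ereg, Tap1, Ifi204 and H2-T23, among the 12728 genes whose mean reached 50. The measure was the root mean square difference of centered log2 values over 6 hearts, and was between 0.0363 and 0.0572 for these genes. Eif2ak2, the nearest of the 10 genes themselves, was at 0.0468, and Mavs, the furthest, at 0.419. Uba7, the activating enzyme of the Isg15 conjugation pathway, had 1604, 1806 and 1471 normalized counts in control hearts and 1035, 1289.7 and 1272 in miR-19a/19b mimic-injected hearts. Tap1 carries peptides to MHC class I molecules, H2-T23 encodes a nonclassical class I molecule, and Ereg a ligand of the epidermal growth factor receptor. Ifi204, H2-T23, Ifit1 and Oasl1 belong to families of similar genes, and how the counting treated reads shared between copies is not stated.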

How the data were processed

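RNA-seq libraries from polyadenylated RNA of 6 hearts (3 injected with control mimic, 3 with miR-19a/19b mimics) were analysed from the deposited table of all genes. The authors removed adapters and low-quality reads, aligned the rest with STAR 2.5.1b and counted reads per gene with HTSeq 0.6.0, and the submitters' processing notes also list DESeq2 1.10.1. The deposited signal is a normalized count, the reads of a gene divided by a size factor of the library (0.905 to 1.16). In every library 100% of the values above 0 came out as whole reads (tolerance 0.001 reads) once this scaling was undone. The deposited fold changes and p-values, and the authors' table of dysregulated genes, were not used. The processing notes name mm9, while 82.7% of the identifiers found in GENCODE M21 (25884) had the same start and end there, so coordinates are given as the table lists them, on GRCm38.

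Groups were compared with limma 3.58.1 (R 4.3.3, trended prior) on log2(normalized count + 1), for genes with a mean of at least 1, with Benjamini and Hochberg adjustment over all genes tested and a threshold of 0.05. A fold change on this scale understates that of low genes. The paper's methods name edgeR, but a count test was kept as an alternative because the deposited values are normalized. The alternatives were DESeq2 1.42.0, edgeR 4.0.16 (TMM and RLE) and limma-voom on the recovered reads, no filter, a minimum of 10 in all 6 hearts, a pseudocount of 0.1, a block for the replicate number, and leaving out each heart. The 4 kinds of test were tested on simulated data. The genes, the lists and the rule for named genes (all 10 sensors and adaptors; the listed genes around them with an unadjusted p-value under 0.05 or the smallest in their role; the 5 nearest profiles) were chosen with earlier results of these data known. Tbk1, Ikbke, Trim25, Cxcl10, Irf3, Ripk3, Fadd, Ifnb1 and the other genes given only by their range were named after their values were seen. The values of 1 listed gene are not reported here. Lengths are those of the table. Whether the counting used strand is not given in the sources used here.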

Additional observations from a re-analysis of the deposited data

How the results depend on the processing

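The count of sensors and adaptors lower at an adjusted p-value under 0.05, 0 in limma, was 1 (Ddx60) with DESeq2 on the recovered reads and 0 with edgeR's quasi-likelihood test (TMM or RLE), limma-voom, no filter, the minimum of 10 or the smaller pseudocount. That of the genes around them, also 0, was 2 with DESeq2. With each heart left out in turn, these counts ranged from 0 to 7 and from 0 to 9, and were highest when miR-19a/19b mimic replicate 3 was absent. Unadjusted, sensors and adaptors that were higher ranged from 0 to 1, and genes around them that were lower ranged from 9 to 21 and higher from 0 to 1, again highest without that heart. In that fit the shares of all genes tested rose as well. Lower genes went from 0% to 0.774% adjusted and from 2.63% to 6.08% unadjusted, and higher genes from 1.39% to 8.39% unadjusted. The cause was not tested. The count of 7 lower sensors at the unadjusted threshold ranged from 7 to 9, and the direction of each of the 10 log2 fold changes was the same in all 14 alternatives. Among settings with all 6 hearts, the replicate number as a block gave 7 lower sensors at the unadjusted threshold and 0 at the adjusted one, and 10 lower genes around them. The same-numbered hearts did not deviate together (correlations of -0.01, -0.02 and -0.11), so the numbers were not taken as pairs. With 3 hearts a group, an exact permutation test of 1 gene cannot give a p-value below 0.1.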
